A study of Mus musculus with 27 samples.

Results

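A set of 9 genes for secreted Wnt signalling proteins was followed across a mouse heart series: the ligands Wnt2, Wnt4, Wnt5a and Wnt11, the Wnt enhancer Rspo3, and the secreted Frizzled-related inhibitors Sfrp1, Sfrp2, Sfrp5 and Frzb. The genes were taken by name, with earlier results of these data known. Shares set beside those of all genes may therefore reflect that choice. All 9 were found among the 24025 genes of the bulk table and among the 19020 genes of the single-cell table. The study compared hearts that lack the long non-coding RNA gene Hand2os1 (Hand2as, also Uph) with control hearts, all from C57BL/6 mice. Allele F is a deletion of the full length of that gene, and allele D deletes its distal part at the 3′ side. The bulk groups were 3 F/+ and 3 F/F whole hearts at embryonic day E11.5, 3 F/+ and 3 F/F ventricle samples at E16.5, and cardiomyocytes of mice aged 8 weeks from 5 +/+, 2 D/+ and 6 D/D samples. The embryonic bulk controls thus also carried 1 deleted copy. A pair of single-cell libraries, +/+ and F/F, was made at E11.5, each from the living sorted cells of 6 pooled hearts.

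Wnt proteins are lipid-modified signals that bind Frizzled receptors. In one branch they work with Lrp5 and Lrp6 co-receptors to stabilise beta-catenin, which acts with TCF/LEF factors on target genes such as Axin2. In another branch, for which Wnt5a and Wnt11 are best known, Ror2 and planar polarity proteins steer cell shape and movement, and both ligands are needed for the outflow tract of the heart. R-spondins bind Lgr receptors and keep Frizzled receptors at the cell surface by blocking the ubiquitin ligases Znrf3 and Rnf43. Sfrp proteins carry a Frizzled-like domain with which they bind Wnts outside the cell.

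Promoter windows (250 bases before to 50 bases after a transcript start, RefSeq, build GRCm38.p6) were at hand for 6 of the 9 genes, in 7 windows. Both strands were searched for CTTTGAT, the core that TCF/LEF factors bind. They were also searched for AGATAA, a site that GATA factors bind, and for CATCTG, an E-box of the type that Hand2 binds. The 3 windows below show how the genes differ, and only bases outside the gene's own RefSeq span are printed, from 5′ to 3′ on the strand of the gene, with a match in capitals. Wnt11 was the only one of the 6 genes with a TCF/LEF core, which lies on the other strand and so reads in reverse complement here, Sfrp5 the only one with GATA letters, and Wnt4 is shown as a window without any of the 3 motifs. They lie at chr7:98834862-98835083 (plus strand) for Wnt11, chr19:42202253-42202502 (minus strand) for Sfrp5 and chr4:137277385-137277634 (plus strand) for Wnt4.
Wnt11: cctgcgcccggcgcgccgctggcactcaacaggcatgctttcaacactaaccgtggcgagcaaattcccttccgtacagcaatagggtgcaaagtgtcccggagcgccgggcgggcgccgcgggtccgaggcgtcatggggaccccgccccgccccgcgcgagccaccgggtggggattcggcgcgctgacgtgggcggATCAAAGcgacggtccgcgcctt
Sfrp5: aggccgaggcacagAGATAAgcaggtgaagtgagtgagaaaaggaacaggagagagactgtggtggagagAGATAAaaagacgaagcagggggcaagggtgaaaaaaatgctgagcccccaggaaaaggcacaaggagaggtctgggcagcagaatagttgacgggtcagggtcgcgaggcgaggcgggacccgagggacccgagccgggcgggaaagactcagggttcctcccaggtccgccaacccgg
Wnt4: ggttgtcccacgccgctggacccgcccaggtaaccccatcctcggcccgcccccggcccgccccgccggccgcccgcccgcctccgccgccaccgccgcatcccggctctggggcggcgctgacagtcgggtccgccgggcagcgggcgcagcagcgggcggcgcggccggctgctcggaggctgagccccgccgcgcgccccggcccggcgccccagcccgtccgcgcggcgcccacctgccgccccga
The printed Wnt4 stretch is 85.2% G and C, against 70.7% for Wnt11 and 59.6% for Sfrp5. The match in Wnt11 starts at position 200 of its window, and those in Sfrp5 at positions 15 and 71, counted from 1 at the 5′ end. Of 32851 mouse promoter windows of the same length, 3.73% held the TCF/LEF core, 11.2% the GATA letters and 17.2% the E-box, which none of the 7 windows held. Such matches describe letters and do not show binding.

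The bulk values are FPKM. This unit divides reads by transcript length and by the size of the library, which lets levels be compared between genes, but read depth is unknown. Between 9495 and 11641 genes reached 1 FPKM in a library. All 11 cardiomyocyte marker genes had group means of at least 1 FPKM at both embryonic stages, and 10 of 11 did in the groups at 8 weeks. A value of 0 is only a listed value in this table, since Gapdh, a gene of every cell, was listed at 0.12 to 5.09 FPKM in the embryonic libraries and at 980 FPKM or more at 8 weeks. For Hand2os1 itself all 6 E11.5 libraries were listed at 0, so it cannot check those labels. It was listed at 0.37 to 1.40 FPKM in the F/+ and at 0 in the F/F samples at E16.5, and the library labelled +/+ replicate 5 at 8 weeks was listed at 0, against its label. Nothing in the labels says whether the bulk replicates came from separate animals, so p-values measure only the spread between these samples.

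In F/+ hearts at E11.5 Sfrp1 was the most abundant of the 9, at 46.9 ± 4.89 FPKM (SD, n = 3), and its lowest library (43.6) lay above the highest library of any other gene of the set. Below it, Wnt5a (18.5 ± 5.98 FPKM), Sfrp2 (17.7 ± 10.1) and Wnt11 (15.9 ± 2.47) overlapped with one another. Wnt2 followed at 11.6 ± 1.24 FPKM, with no value in the ranges of Wnt11 above it and Sfrp5 below it. All its values lay within the wide range of Sfrp2 (8.91 to 28.7 FPKM), whose lowest library was also below the highest of Sfrp5 (9.62 FPKM). Sfrp5 (7.14 ± 2.23 FPKM) and Rspo3 (6.73 ± 1.65) overlapped, and Wnt4 (4.34 ± 0.168) and Frzb (2.65 ± 0.924) came last, each with its highest value below the lowest of the gene before it. The plot of library values by group shows all 25 libraries.

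**Figure D1:**
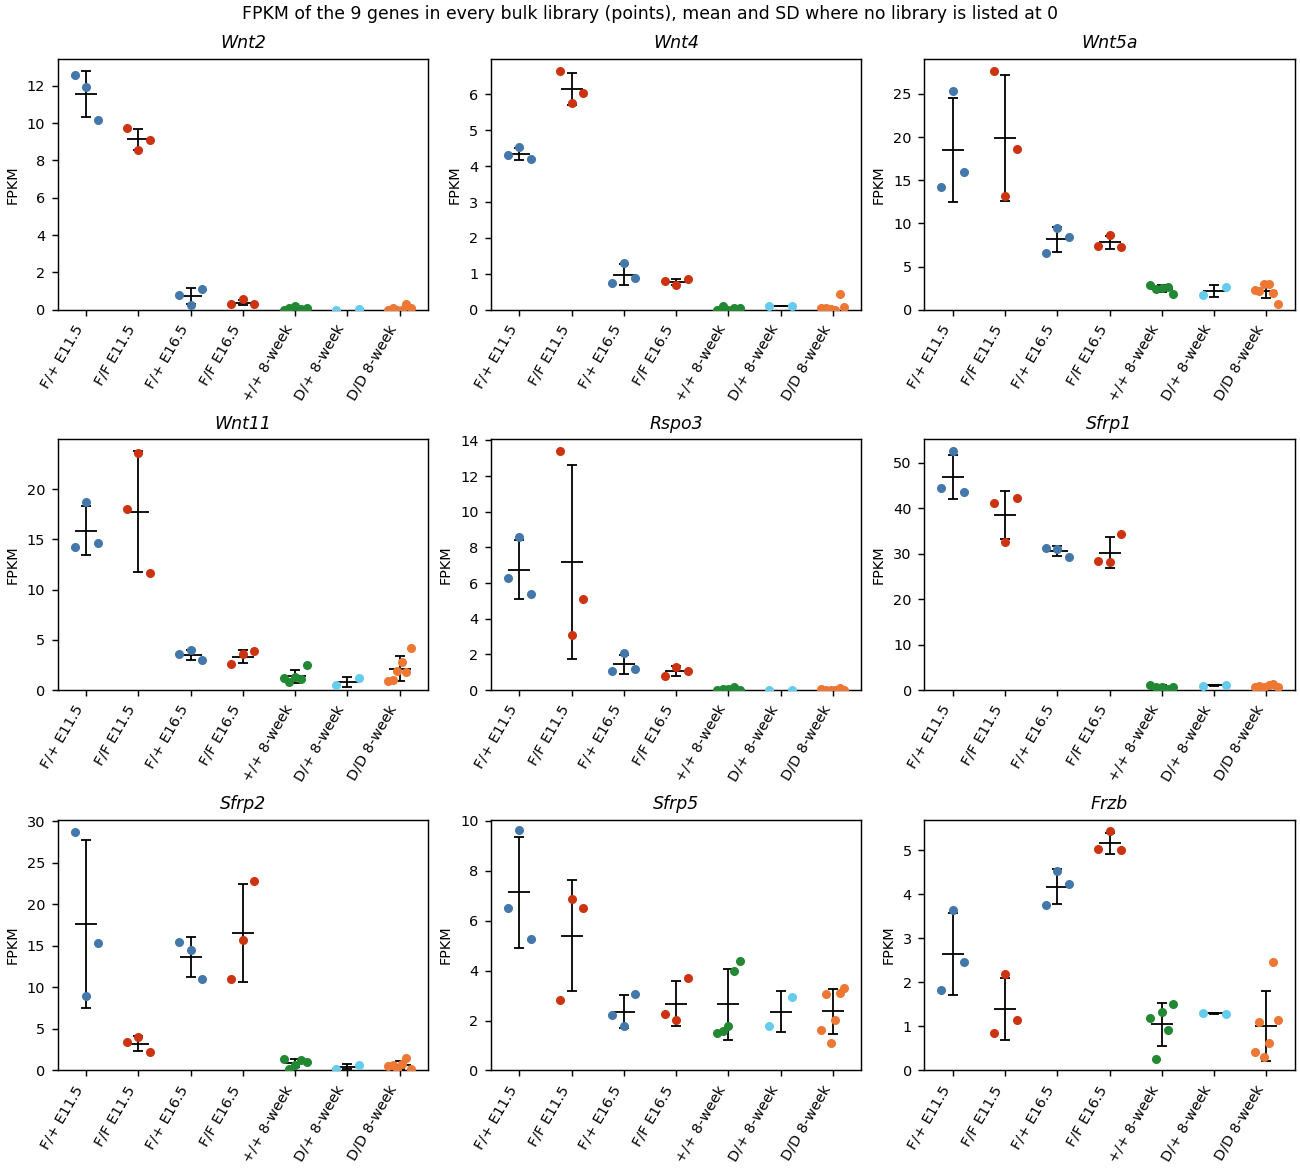
FPKM (vertical axis, linear, a scale of its own for each gene) in each of the 25 bulk libraries by genotype and stage; points are libraries, and the black bars are the mean and SD where no library is listed at 0. Sfrp2 stands between 8.91 and 28.7 FPKM in the F/+ hearts at E11.5 and between 2.25 and 3.99 in the F/F hearts, and Sfrp1 falls from 28.1 FPKM or more at E16.5 to at most 1.40 at 8 weeks.

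The first comparison asks what changed at E11.5 when both copies of the full-length gene were deleted (F/F against F/+). Sfrp2 was lower in every F/F heart, the other 8 genes differed less, and none of the 9 passed the test. Sfrp2, an inhibitor made by mesenchyme in many embryonic organs, measured 28.7, 8.91 and 15.4 FPKM in the 3 F/+ hearts against 3.41, 3.99 and 2.25 FPKM in the 3 F/F hearts. Every F/F heart lay below every F/+ heart, and the lowest F/+ heart was more than 2 times the highest F/F heart. The difference was -2.03 on the log2(FPKM + 1) scale (SE 0.38, limma), and its p was the 7th smallest of 11491 genes. The limma adjusted p was 0.417, so Sfrp2 did not pass the threshold of 0.05. In bulk tissue a lower level can come from fewer cells of a type or from less RNA per cell, and these cannot be told apart.

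None of the 9 genes was called at E11.5 by limma (0 of 9), where 0.0087% of all genes were called, and 1 of the 9, Sfrp2, had an unadjusted p under 0.05, where 4.37% of all genes had one. The values of the genotypes did not overlap for 4 of the 9, 1 higher and 3 lower in F/F. Among all genes tested, 9.23% did not overlap, 4.93% higher and 4.31% lower. The median log2 fold change of the 9 was -0.28, beside 0.02 over all genes tested.

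Among the ligands, Wnt4, which directs kidney tubule and gonad formation, measured 4.30, 4.52 and 4.19 FPKM in F/+ against 6.65, 5.75 and 6.05 FPKM in F/F hearts. It was the one gene of the 9 with every F/F heart above every F/+ heart, by 0.42 on the log2 scale (SE 0.24, limma adjusted p 0.999). The 11 endothelial and endocardial markers, all at 1 FPKM or more in both genotypes, summed to 357, 385 and 398 FPKM in F/+ against 436, 457 and 427 in F/F hearts, and their part in the Wnt4 difference was not tested. Wnt2, a ligand known from the venous pole of the early heart and from lung specification, measured 12.6, 11.9 and 10.2 FPKM in F/+ against 9.71, 8.55 and 9.10 in F/F hearts, without overlap (-0.31, SE 0.21, limma adjusted p 0.999). Wnt5a overlapped, with 14.2, 25.3 and 15.95 FPKM in F/+ against 27.7, 13.2 and 18.7 in F/F hearts. Wnt11 also overlapped, with 14.3, 18.7 and 14.6 FPKM against 18.1, 23.6 and 11.6. The sign of both differences depended on single libraries. That of Wnt5a (0.08) was -0.18 without F/F replicate 1 and also below 0 without F/+ replicate 1 or 3, and that of Wnt11 (0.11) was -0.11 without F/F replicate 2.

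Rspo3, needed for blood vessel formation in the embryo and placenta, ranged widely within the F/F genotype. The F/+ hearts measured 6.27, 8.57 and 5.36 FPKM against 13.4, 3.11 and 5.08 FPKM in the F/F hearts, so that 1 F/F heart was the highest and another the lowest of the 6. Its log2 difference of -0.10 became 0.30 without F/F replicate 2, the heart at 3.11 FPKM, and was above 0 also without F/+ replicate 2 or F/F replicate 3.

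Of the other inhibitors, Sfrp1 measured 44.5, 52.5 and 43.6 FPKM in F/+ against 41.1, 32.5 and 42.2 in F/F hearts. The groups lay close together without overlap, with a log2 difference of -0.28 (SE 0.17, limma adjusted p 0.999). Sfrp5, known from the inflow side of the heart tube, was at 6.53, 9.62 and 5.28 against 2.83, 6.86 and 6.53 FPKM, and Frzb, the family member known as Sfrp3, at 1.83, 3.65 and 2.46 against 0.86, 2.19 and 1.15 FPKM. Both overlapped, with log2 differences of -0.38 (SE 0.34) and -0.61 (SE 0.37).

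Values of other genes and of marker lists are set beside Sfrp2 at E11.5, without a test. Osr1, a transcription factor of lateral mesoderm, measured 29.1, 14.4 and 9.09 FPKM in F/+ against 5.03, 4.32 and 5.19 in F/F hearts, and Crabp2, a retinoic acid binding protein, at 18.8, 45.5 and 5.72 against 1.04, 2.79 and 0 FPKM. Both lead a single-cell cluster in which Sfrp2 was highest, described below, and both were chosen here after their values were seen. Rgs5 and Dkk1, also leaders of that cluster, overlapped between the genotypes, and bulk values of its remaining leaders are not given here. Rgs5, a pericyte gene, was at 6.93, 1.44 and 7.85 against 0.96, 2.51 and 0.42 FPKM, and Dkk1, a secreted Wnt inhibitor, at 0.90, 2.67 and 1.02 against 2.54, 0.78 and 0.82 FPKM. The genes most like Sfrp2 in single cells overlapped too: Inhba, an activin subunit, was at 3.09, 3.53 and 1.74 against 7.37, 0.73 and 3.34 FPKM and Robo2, a Slit receptor, at 2.26, 2.69 and 0.58 against 2.39, 2.91 and 1.80, while Fibin was listed at 0.82 FPKM or less in each heart. Of the 6 foregut and lung epithelium markers, 5 had a mean of at least 1 FPKM in the F/+ hearts, with sums of 30.4, 11.2 and 2.09 FPKM, and none did in the F/F hearts, with sums of 0.04, 3.13 and 0.46 and Nkx2-1 listed at 0. The 11 mesenchymal markers, all at 1 FPKM or more, summed to 491, 624 and 574 FPKM in F/+ and to 493, 435 and 430 in F/F hearts. The foregut and the mesenchymal sums overlapped between the genotypes. Of the foregut markers, Epcam did not overlap, at 4.96, 4.59 and 1.27 FPKM in F/+ against 0, 0.33 and 0.28 in F/F hearts, while Cdh1 and Cldn6 did. Some marker lists not printed here had sums without overlap, lower or higher in F/F. Without F/+ replicate 1, the heart with the highest foregut sum and the most Sfrp2, the log2 difference of Sfrp2 was -1.62. The part of these other tissues in the Sfrp2 difference was not tested.

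**Figure D2:**
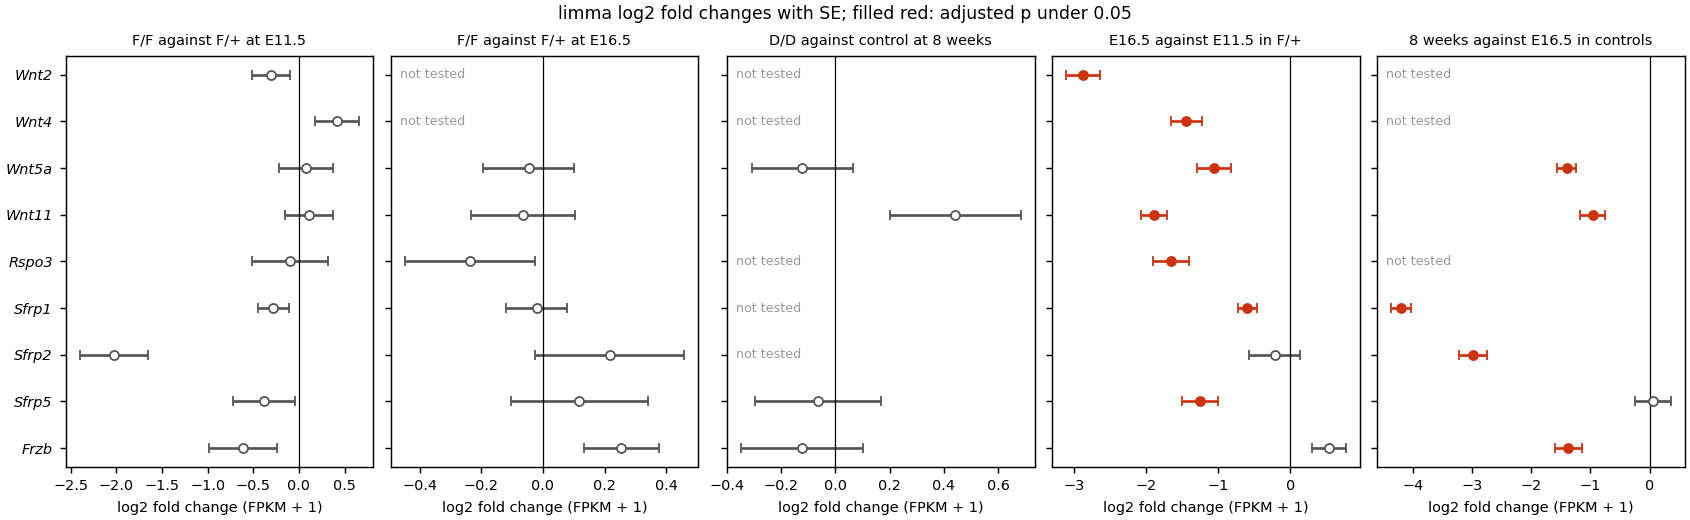
Log2 fold change of each gene on the log2(FPKM + 1) scale (horizontal axis, a range of its own in each panel) with its SE from limma in 5 comparisons; filled red points have an adjusted p under 0.05 and open grey points do not, and genes under a mean of 1 FPKM were not tested. Red points occur only in the comparisons of stages, 7 genes between E11.5 and E16.5 and 5 between E16.5 and 8 weeks.

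In E16.5 ventricles, the second comparison of F/F with F/+, none of the tested genes was called by limma either (0 of 7, with 0 at an unadjusted p under 0.05; 0.00935% and 2.63% of all genes). Sfrp2 measured 15.5, 14.5 and 10.98 FPKM in F/+ against 11.05, 15.75 and 22.79 FPKM in F/F ventricles, which overlapped, with a log2 difference of 0.22 (SE 0.24, limma adjusted p 0.9999). Frzb was the only 1 of the 7 without overlap, at 3.75, 4.53 and 4.24 FPKM against 5.04, 5.43 and 5.01 (0.25, SE 0.12, limma adjusted p 0.9999). Among all genes 6.78% did not overlap, and 3.9% were higher in every F/F ventricle than in every F/+ ventricle. The sum of 4 Y-linked genes was 5.05, 5.67 and 5.58 FPKM in the F/F and 0, 4.82 and 0.03 FPKM in the F/+ libraries. With it as a covariate the Frzb difference was 0.14 and that of Sfrp2 0.09. The differences of the other tested genes grew. They went from -0.24 to -0.63 for Rspo3, from 0.12 to 0.38 for Sfrp5 and from -0.05 to -0.28 for Wnt5a. For Wnt11 they went from -0.06 to -0.23 and for Sfrp1 from -0.02 to -0.05.

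The other tested genes overlapped at E16.5. Sfrp1 was at 31.3, 31.1 and 29.4 FPKM in F/+ against 28.4, 28.1 and 34.2 in F/F ventricles, and Wnt5a ranged from 6.52 to 9.44 against 7.31 to 8.66 FPKM. Wnt11 (2.97 to 3.97 against 2.58 to 3.87 FPKM), Sfrp5 (1.80 to 3.07 against 2.04 to 3.71) and Rspo3 (1.08 to 2.07 against 0.78 to 1.32) stood lower. Wnt2 and Wnt4 were at most 1.30 FPKM in any ventricle library and had means under 1 FPKM, so neither was tested.

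Whether the effect of F differed between the stages was tested with an interaction term over the 12 embryonic libraries. For Sfrp2 the difference between stages was 2.24 on the log2 scale (SE 0.49, limma adjusted p 0.499), the effect being -2.03 at E11.5 and 0.22 at E16.5. For Frzb it was 0.87 (SE 0.35, limma adjusted p 0.999), from -0.61 to 0.25. None of the 9 was called (0.00875% of all genes were), and 2 of the 9, Sfrp2 and Frzb, had an unadjusted p under 0.05 (4.32% of all genes). A difference between the stages is therefore not shown for either gene.

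In adult cardiomyocytes the D/D genotype was compared with +/+ and D/+ together, and only Wnt5a, Wnt11, Sfrp5 and Frzb reached a mean of 1 FPKM. No gene of these was called (0 of 4 by limma, none at an unadjusted p under 0.05), and 0% of all genes were called, with 1.71% at an unadjusted p under 0.05. Wnt11 had the largest difference, 0.78 to 2.49 FPKM in +/+ (median 1.16), 0.49 and 1.16 in D/+, and 0.89 to 4.23 in D/D (median 1.86). The groups overlapped (log2 difference 0.44, SE 0.24, limma adjusted p 0.9999). Wnt5a (0.68 to 3.03 FPKM in D/D, 1.69 to 2.86 in controls), Sfrp5 (1.11 to 3.31 against 1.52 to 4.39) and Frzb (0.30 to 2.46 against 0.25 to 1.52) differed by -0.12, -0.06 and -0.12. Sfrp1 was at most 1.40 and Sfrp2 at most 1.53 FPKM in any of the 13 libraries, and Wnt2, Wnt4 and Rspo3 were at most 0.44 FPKM, with some libraries listed at 0.

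The other genes of the pathway gave no call between genotypes either. Of 76 further genes, 51 were tested at E11.5, 47 at E16.5 and 41 at 8 weeks, and limma called 0 in each, with 1, 0 and 1 at an unadjusted p under 0.05 (4.37%, 2.63% and 1.71% of all genes). These were the receptor Fzd7 at E11.5, with 9.25 to 16.6 FPKM in F/+ and 5.39 to 10.9 in F/F hearts (log2 difference -0.78, SE 0.30, limma adjusted p 0.999), and the inhibitor Wif1 at 8 weeks, with 2.47 to 5.97 FPKM in controls and 1.74 to 3.08 in D/D (-0.44, SE 0.17, limma adjusted p 0.9999). The median log2 fold change of the 6 tested beta-catenin targets was -0.30 at E11.5 and that of the 15 tested receptors -0.03.

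The level of most of the 9 genes changed between stages. From E11.5 hearts to E16.5 ventricles in F/+ embryos, 7 of the 9 fell and none rose, where 31% of all 11405 genes fell and 17.7% rose (limma, adjusted p under 0.05). Between these stages the median over all genes was itself -0.18, and rescaling by median ratios brought it to 0.01, so changes are best read beside that shift. Stage and tissue (whole heart, ventricle) cannot be told apart in this comparison, and it uses the same F/+ libraries as the genotype comparisons.

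All 4 ligands fell, Wnt2 furthest. It went from 12.6, 11.9 and 10.2 to 0.81, 0.27 and 1.13 FPKM, a log2 change of -2.88 (SE 0.24, limma adjusted p 5.43e-05). Wnt11 (-1.90, SE 0.18), Wnt4 (-1.45, SE 0.22) and Wnt5a (-1.07, SE 0.24) fell as well, with no overlap between the stages (37.2% of all genes were lower without overlap). Rspo3 fell by 1.66 (SE 0.25) on the log2 scale, from 5.36 to 8.57 FPKM down to 1.08 to 2.07 FPKM. Atrial and sinus venosus markers, of which 8 of 8 had a mean of at least 1 FPKM at E11.5 and 4 of 8 at E16.5, summed to 117 to 123 and then to 28.7 to 30.9 FPKM, with Sln and Vsnl1 listed at 0 in the E16.5 F/+ ventricles. Epicardial markers summed to 265 to 413 and then to 66.4 to 77 FPKM, and 9 and then 7 of the 9 found in the table had a mean of at least 1 FPKM. Endothelial and endocardial markers summed to 357 to 398 and then to 324 to 354 FPKM. In single cells, described below, Wnt4 and Wnt11 were highest in that class. Outflow and second heart field markers, the class highest in Rspo3, summed to 26.9 to 59.9 and then to 5.37 to 6.82 FPKM. The part of these marker lists in the fall of the ligands and Rspo3 was not tested.

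The inhibitors moved unevenly. Sfrp5 fell by 1.26 on the log2 scale (SE 0.25, limma adjusted p 0.00388) and Sfrp1 by only 0.60 (SE 0.13, limma adjusted p 0.00519), staying at 29.4 to 31.3 FPKM in E16.5 ventricles. Sfrp2 kept overlapping values, 8.91 to 28.7 and then 10.98 to 15.48 FPKM (-0.22, SE 0.36, limma adjusted p 0.632), and was higher rather than lower at E16.5 (0.19) without F/+ replicate 1 of E11.5. Frzb was the only gene with a positive change, 1.83 to 3.65 and then 3.75 to 4.53 FPKM. It did not pass the test (0.53, SE 0.23, limma adjusted p 0.0911) but did after median-ratio scaling (0.70, limma adjusted p 0.0293) and without F/+ replicate 2 of E11.5 (0.72, limma adjusted p 0.0258). The mesenchymal marker sum, all 11 markers at 1 FPKM or more, was 491 to 624 FPKM at E11.5 and 1240 to 1390 FPKM in E16.5 F/+ ventricles, and its part in the inhibitors' levels was not tested.

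Of the other pathway genes, 10 rose and 20 fell between these stages among 51 tested, beside 17.7% and 31% of all genes. Those that fell furthest, by the rule for naming them, were the transcription factor Lef1 (11.9 ± 4.98 to 0.467 ± 0.14 FPKM, log2 change -3.06), Fzd7 (-2.14), the secreted protein Dkk3 (-1.90), the R-spondin Rspo1 (-1.69), Daam2, a formin of the polarity branch (-1.27), and Ctnnb1, which encodes beta-catenin (190 ± 25.9 to 81.1 ± 5.22 FPKM, -1.21). Those that rose were Wif1, a secreted Wnt inhibitor (listed at 0, 0.56 and 3.25 FPKM at E11.5 and at 7.44 to 11.04 at E16.5, 2.49), Kremen1, a receptor of Dkk proteins (1.47), the receptor Ror1 (1.29), Wls, which carries Wnts to the cell surface (1.09), the receptor Fzd4 (1.04) and Daam1 (0.88). All 12 had a limma adjusted p of at most 0.00647. By role, 4 of the 6 tested beta-catenin targets fell and none rose, while 4 of 16 receptors fell and 4 rose.

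From E16.5 ventricles to cardiomyocytes of 8 weeks, 5 of the 6 tested genes fell and none rose, where 44.9% of all 10904 genes fell and 24.9% rose (limma). The median over all genes was -0.34 (0.03 after median-ratio scaling). Stage, tissue preparation and genotype (F/+ and +/+) cannot be told apart here. Sfrp1 fell from 29.4 to 31.3 FPKM to 0.33 to 1.21 FPKM (-4.20, SE 0.17, limma adjusted p 6.7e-08) and Sfrp2 from 10.98 to 15.48 FPKM to 0.19 to 1.36 FPKM (-2.99, SE 0.24, limma adjusted p 3.97e-06). Wnt5a (-1.40), Frzb (-1.38) and Wnt11 (-0.96) also fell, while Sfrp5 stayed at 1.52 to 4.39 FPKM beside 1.80 to 3.07 FPKM (0.05, SE 0.30, limma adjusted p 0.88). Sfrp5, at 2.66 ± 1.42 FPKM (SD, n = 5), and Wnt5a, at 2.44 ± 0.392, overlapped as the highest of the 9 in +/+ cardiomyocytes. The mesenchymal marker sum was 1240 to 1390 FPKM in E16.5 F/+ ventricles and 38.1 to 64.5 FPKM in +/+ cardiomyocytes, where 8 of the 11 markers reached a mean of 1 FPKM, and its part in the fall of the inhibitors was not tested.

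Among the other pathway genes 4 rose and 30 fell of 47 tested, beside 24.9% and 44.9% of all genes. The receptors Ror2 (25.8 ± 0.641 to 0.326 ± 0.192 FPKM, log2 change -4.35) and Fzd2 (39.2 ± 2.85 to 2.15 ± 0.46 FPKM, -3.68) fell furthest, followed by the cell cycle gene Ccnd1 (-2.24), Dvl2, which relays Frizzled signals (-2.15), Ror1 (-2.09) and Csnk1a1, a kinase of the beta-catenin destruction complex (-2.01). Lgr6, an R-spondin receptor, rose from 3.53 ± 0.337 to 19 ± 2.3 FPKM (2.13), and Gsk3a, another kinase of that complex, by 0.73. All 8 had a limma adjusted p of at most 0.00499. Of the 8 tested polarity genes 7 fell.

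The single-cell libraries show which cells held these transcripts at E11.5. The tables hold 2563 barcodes for +/+ and 3469 for F/F, where about 5000 cells had been aimed for per library, with medians of 13369 and 13403 UMIs (counted molecules), and 18 barcode sequences occurred in both libraries. After removal of probable doublets 2503 and 3368 cells remained in 18 clusters, which were found without any gene of the Wnt lists and are called "-like" after fixed marker lists. Values are CPM, the UMIs of a gene per 1e6 UMIs of a class, with 95% exact Poisson intervals that cover counting error only. UMI counts at transcript ends are not scaled by length, so they are compared here between classes, not between genes. Each genotype has 1 library, so genotypes are not tested against each other here. In erythroid-like cells, which should make none of these proteins, the 9 genes stood between 0.0724 and 5.32 CPM, a level that free RNA in the droplets can give.

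**Figure D3:**
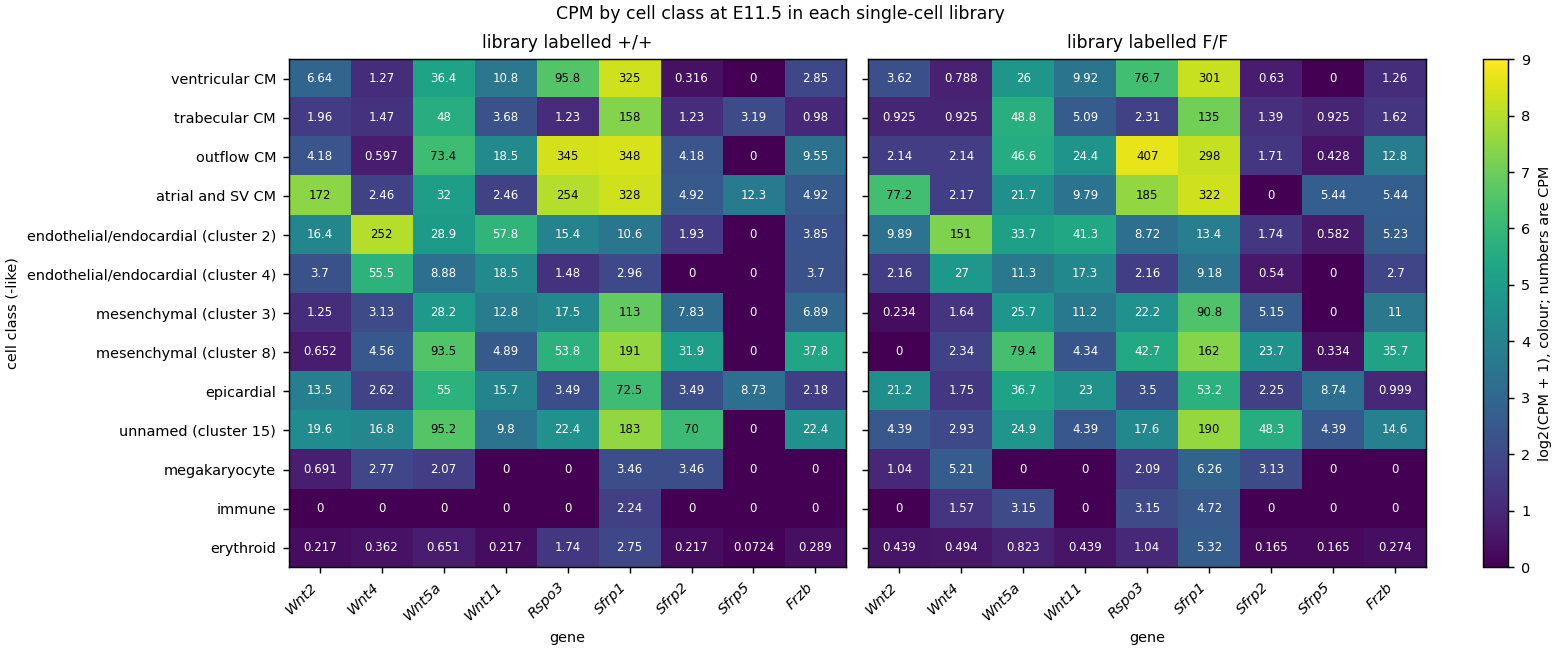
Level of each gene (columns) in each cell class (rows) in the +/+ library (left) and the F/F library (right); the colour is log2(CPM + 1) and the printed numbers are CPM, CM stands for cardiomyocytes and SV for sinus venosus. Rspo3 reaches 345 and 407 CPM in outflow cardiomyocytes and Wnt4 252 and 151 CPM in the endothelial and endocardial cells of cluster 2.

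The ligands differed in the classes that held them. Wnt2 was highest in atrial and sinus venosus-like cardiomyocytes (35 and 74 cells, led by Shox2), at 172 CPM (134 to 218) in the +/+ and 77.2 CPM (60.3 to 97.4) in the F/F library. Epicardial-like cells followed in the F/F library at 21.2 CPM, and no other class passed 20 CPM in either library. Wnt4 was highest in the endothelial and endocardial-like cells of cluster 2 (107 and 156 cells, led by Stmn2 and Pi16), at 252 CPM (223 to 285) and 151 CPM (133 to 171), which held 65.5% and 71.4% of all its UMIs in 4.27% and 4.63% of the cells. A second endothelial and endocardial-like cluster, cluster 4 (led by Emcn and Gja4), had 55.5 and 27.0 CPM of Wnt4. Wnt11 was also highest in cluster 2, at 57.8 and 41.3 CPM, but was spread further, with 18.5 and 24.4 CPM in outflow cardiomyocyte-like cells and 15.7 and 23.0 CPM in epicardial-like cells.

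Wnt5a was spread over mesenchyme, myocardium and epicardium, and Rspo3 was strong in the myocardium outside the trabecular class. Wnt5a stood at 93.5 and 79.4 CPM in mesenchymal-like cluster 8 (led by Inhba) and at 95.2 and 24.9 CPM in the unnamed cluster 15. It was at 73.4 and 46.6 CPM in outflow and second heart field-like cardiomyocytes and at 55.0 and 36.7 CPM in epicardial-like cells. Trabecular-like cardiomyocytes had 48.0 and 48.8 CPM and ventricular-like cardiomyocytes 36.4 and 26.0 CPM. Rspo3 was concentrated in the outflow and second heart field-like cardiomyocytes (122 and 169 cells, led by Mybpc1, Sln and Sema3c), at 345 and 407 CPM, and next in atrial and sinus venosus-like cardiomyocytes, at 254 and 185 CPM. Ventricular-like cardiomyocytes followed at 95.8 and 76.7 CPM, and mesenchymal-like cluster 8 at 53.8 and 42.7 CPM. The outflow class held 45.3% and 49.8% of Rspo3 UMIs in 4.87% and 5.02% of the cells, while trabecular-like cardiomyocytes had 1.23 and 2.31 CPM, beside 1.74 and 1.04 CPM in erythroid-like cells. When clusters were made at a lower resolution (0.5), the outflow class did not form as such. The highest class for Rspo3 was then atrial and sinus venosus-like in the +/+ and mural-like in the F/F library. For Wnt5a it was mural-like in the +/+ and mesenchymal-like in the F/F library.

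The inhibitors differed in the classes that held them. Sfrp1 was high in all myocardium, with 348 and 298 CPM in outflow, 328 and 322 in atrial and sinus venosus, 325 and 301 in ventricular and 158 and 135 in trabecular-like cardiomyocytes, and it also reached 191 and 162 CPM in mesenchymal-like cluster 8. Its level in endothelial and endocardial-like cells was 2.96 to 13.4 CPM. Sfrp2 was highest in cluster 15 (62 and 61 cells), at 70.0 CPM (52.0 to 92.3) and 48.3 CPM (33.2 to 67.8), and next in mesenchymal-like cluster 8, at 31.9 and 23.7 CPM. Cluster 15 stayed without a name. It is led by Rgs5, Fgf5, Osr1, Dkk1 and Crabp2 besides Sfrp2. At the lower resolution (0.5) the highest named class for Sfrp2 was mural-like in both libraries, in place of mesenchymal-like. Frzb was highest in mesenchymal-like cluster 8, at 37.8 and 35.7 CPM, which held 57.1% and 45.1% of its UMIs. Sfrp5 was rare, with 40 and 53 UMIs in all cells, of which 50% and 66% were in epicardial-like cells at 8.73 and 8.74 CPM. It was at 12.3 and 5.44 CPM in atrial and sinus venosus-like cardiomyocytes. Trabecular-like cardiomyocytes held 32.5% and 7.55% of its UMIs, on 13 and 4 UMIs (log2 ratio -1.78, interval -3.86 to -0.09).

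Across the 12 named classes in both libraries (24 points that share the libraries and the clustering), the 9 genes followed each other to different degrees. Wnt5a and Sfrp1 had a Pearson's r of 0.82 on log2(CPM + 1), Rspo3 and Sfrp1 0.81, Wnt5a and Frzb 0.75, Wnt2 and Sfrp5 0.74, Wnt5a and Wnt11 0.73, Rspo3 and Frzb 0.69, and Sfrp2 and Frzb 0.69. Wnt4 and Sfrp1 had the lowest, -0.30. Among the 10384 genes that reached 100 UMIs in both libraries, those most like each gene over these points were Cav1, Spon1 and Tnrc6b for Wnt2 (highest r 0.83), Cmas, Rfk and Aqp1 for Wnt4 (0.94), Afap1, Unc5b and Dst for Wnt5a (0.97), H19, Tmem108 and Efnb2 for Wnt11 (0.94), and Ndufa1, Bmp4 and Gpr85 for Rspo3 (0.90). For the inhibitors they were Tagln, Nav2 and Cdh2 for Sfrp1 (0.97), Inhba, Fibin and Robo2 for Sfrp2 (0.83), Wdr86, Mab21l2 and Rspo1 for Sfrp5 (0.77), and Foxp2, Shank1 and Fgfrl1 for Frzb (0.93). These values are descriptions without a test.

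Between the libraries, Sfrp2 was the gene with the lowest F/F level relative to +/+ over all cells, 5.56 CPM (206 UMIs) in the +/+ and 3.22 CPM (159 UMIs) in the F/F library, a ratio of 0.579 (log2 -0.79, interval -1.09 to -0.48). Of the 8 genes of the set that reached this number, Sfrp2 alone was more than 1.5-fold lower, as were 1.41% of all 10384 such genes, and none was more than 1.5-fold higher (0.183% of all genes). Within the classes that hold it the ratio was also below 1, with 0.742 (log2 interval -0.89 to 0.02) in mesenchymal-like cluster 8 and 0.689 (-1.22 to 0.13) in cluster 15. In mesenchymal-like cluster 3 it was 0.658 (-1.5 to 0.28), on 25 and 22 UMIs. Each of these intervals includes no difference and also the ratio over all cells. Whether cell shares or levels per cell changed was not tested. Cluster 8 made up 8.11% of the +/+ and 5.29% of the F/F cells, and cluster 15 2.48% and 1.81%. Of the cluster 15 genes that were lower in the F/F hearts in bulk, Osr1 was at 56.0 and 23.4 CPM in that cluster and Crabp2 at 39.2 and 65.8 CPM. The epithelial gene Epcam was at 11.2 and 8.78 CPM there and at 2.18 CPM or less in the other cardiac classes. The bulk and single-cell comparisons have different controls, F/+ and +/+.

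Wnt4 went the other way than in bulk. It was 10.8 CPM over all +/+ and 7.38 CPM over all F/F cells (log2 -0.55, interval -0.76 to -0.34), and was lower in F/F in both endothelial and endocardial-like clusters, by -0.74 (-0.99 to -0.49) in cluster 2 and -1.04 (-1.58 to -0.50) in cluster 4 on the log2 scale. In bulk its level was higher in every F/F than in every F/+ heart, as was the endothelial and endocardial marker sum. Of all genes that reached 100 UMIs there in both libraries, 3.32% were more than 1.5-fold lower in F/F in cluster 2, as Wnt4 was. Wnt2 in atrial and sinus venosus-like cardiomyocytes, with 70 and 71 UMIs, was lower in F/F by -1.16 (-1.66 to -0.66), while over all cells its levels were 4.94 and 4.50 CPM (log2 -0.14, interval -0.42 to 0.16).

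Wnt5a was lower in the F/F library over all cells, 29.0 and 22.6 CPM (log2 -0.36, interval -0.48 to -0.24). The difference varied by class. It was -1.94 (-2.80 to -1.15) in cluster 15, from 95.2 to 24.9 CPM on 68 and 17 UMIs, -0.66 (-1.04 to -0.27) in outflow and second heart field-like cardiomyocytes, where 2.28% of all genes with enough UMIs were more than 1.5-fold lower, and -0.58 (-0.94 to -0.23) in epicardial-like cells. In trabecular-like cardiomyocytes it was 0.02 (-0.27 to 0.31). Rspo3 was 34.5 and 38.7 CPM over all cells (log2 0.17, interval 0.06 to 0.27), with 0.24 (0.09 to 0.39) in the outflow class and -0.46 (-0.82 to -0.09) in the atrial and sinus venosus class. Its ratio in ventricular-like cardiomyocytes, -0.32, depended on the clustering and was 0.11 when Wnt genes were allowed among the variable genes. Sfrp1 was 99.6 and 98.4 CPM over all cells (log2 -0.02, interval -0.08 to 0.04), Sfrp5 1.08 and 1.07, Frzb 5.48 and 4.80 (-0.19, interval -0.47 to 0.09) and Wnt11 7.24 and 8.47 CPM (0.23, interval 0.00 to 0.45). The counting intervals leave out the spread between hearts, which cannot be measured with 1 pool per genotype.

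**Figure D4:**
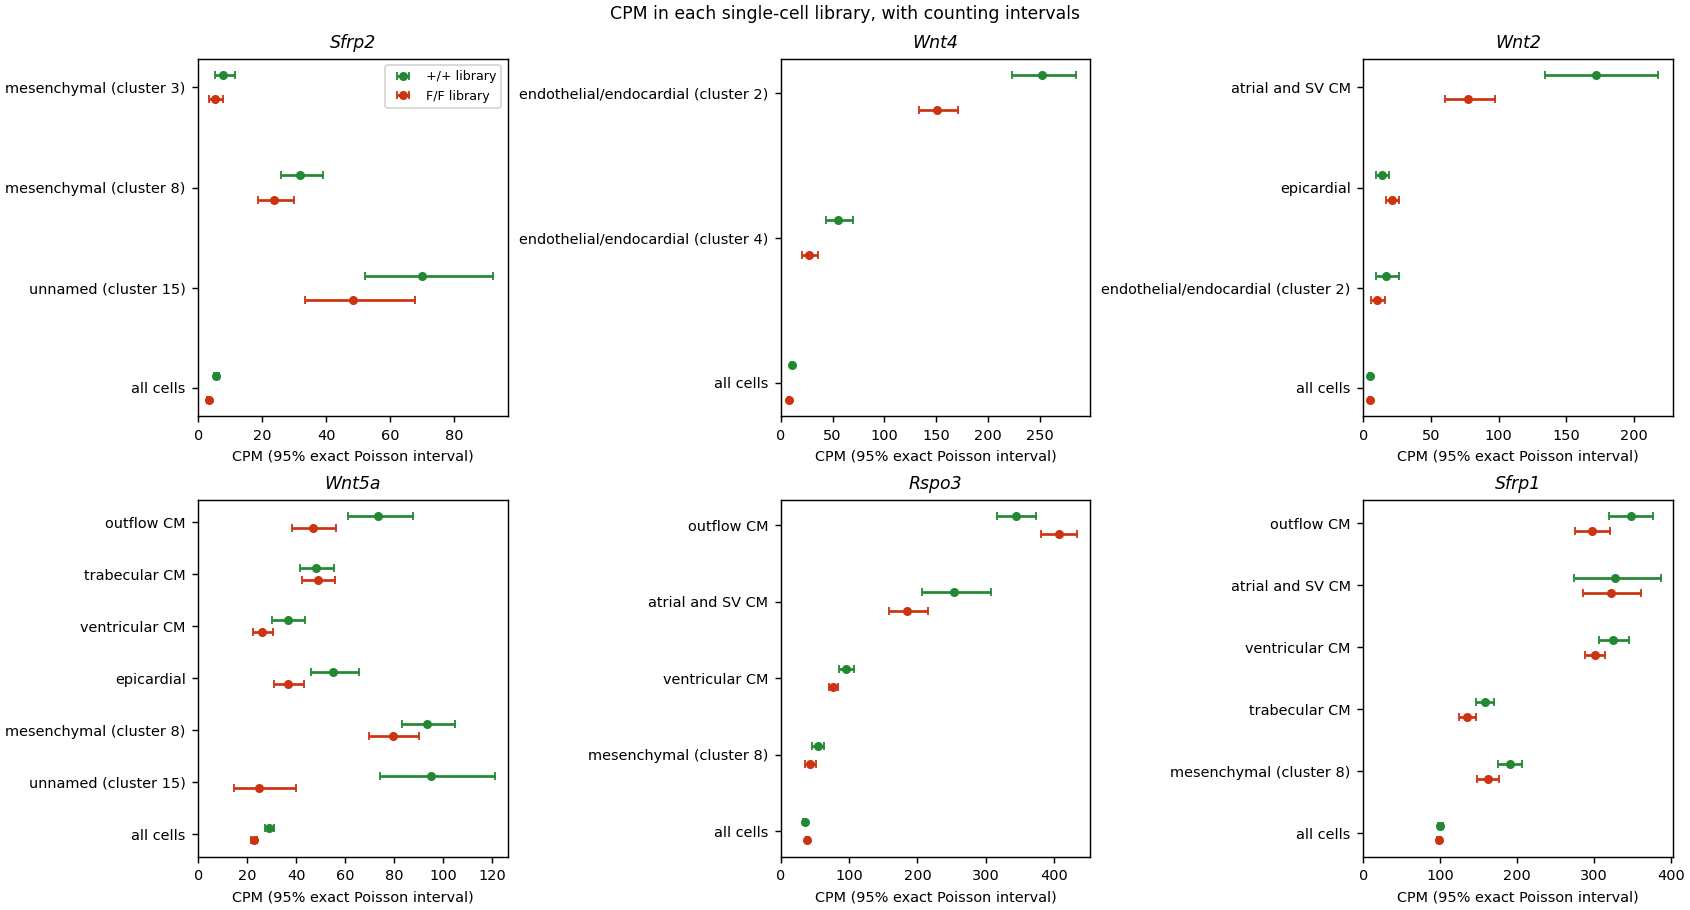
CPM (horizontal axis, linear, a range of its own in each panel) of 6 genes in the classes that hold them and in all cells, in the +/+ library (green) and the F/F library (red); bars are 95% exact Poisson intervals and cover counting error only. For Wnt4 in the endothelial and endocardial cells of cluster 2 (252 and 151 CPM) and Wnt2 in atrial and sinus venosus cardiomyocytes (172 and 77.2 CPM) the intervals of the libraries do not overlap, and for Sfrp2 in cluster 15 (70.0 and 48.3 CPM) they do.

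Receptors and targets were set beside the ligands in the same cells. Wls, which every Wnt-secreting cell needs, was present in all named heart classes, at 70.1 to 152 CPM in the cardiomyocyte, endothelial, mesenchymal and epicardial-like classes, and at 1.74 and 3.73 CPM in erythroid-like cells. Fzd2 and Fzd1 were highest in mesenchymal-like cluster 8 (131 and 113 CPM for Fzd2) and in outflow cardiomyocyte-like cells (103 and 72.3 CPM for Fzd1), if the unnamed cluster 15 (108 and 101 CPM for Fzd1) is left aside. Ror2, the receptor best known for Wnt5a, reached 35.8 and 30.5 CPM in trabecular-like cardiomyocytes. Lgr4, an R-spondin receptor, was at 25.9 and 22.1 CPM in ventricular-like and 27.9 and 32.8 CPM in trabecular-like cardiomyocytes. Of the beta-catenin targets, Lef1 (47.9 and 49.8 CPM) and Nkd1 (66.1 and 78.4 CPM) were highest in mesenchymal-like cluster 3, led by Epha3 and Msx1, and Axin2 there was at 12.5 and 9.59 CPM. Wnt9b, a ligand of the cushion endocardium, was at 33.7 and 16.3 CPM in cluster 2, where Wnt4 was also highest, and at no more than 1.62 CPM in any other class.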

How the data were processed

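The authors made the bulk values, which the file's own values show to be FPKM although no header names the unit, with CASAVA, TopHat and TopHat2 2.0.11 and build mm9, per the submitters' processing notes, and deposited 1 value per gene and library. The single-cell values are UMI counts, whole numbers made by the authors with Cell Ranger and build mm10, per the same notes, and the end of a barcode gives its library. The program behind the FPKM values and the annotation are not given in the sources used here. Bulk libraries were strand-specific and made from poly(A) RNA, per the labels.

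The gene set and all lists were chosen with earlier results of these data known. Bulk values were tested as log2(FPKM + 1) with limma 3.58.1 (trend, R 4.3.3), keeping genes whose mean over a fit reached 1 FPKM, with Benjamini-Hochberg adjustment over all of them and a threshold of 0.05. Each embryonic stage, the 13 libraries of 8 weeks, each stage comparison and the interaction had a fit of its own. A fold change on this scale understates the change of low genes. Of 24525 lines, 769 held 270 repeated symbols, of which identical lines were merged. A blank cell removed 1 gene. The limma test was tested on simulated data with known changes. The rates at which it recovered them are not reported here, so a lack of calls does not exclude a change.

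Single cells (scanpy 1.11.5) with at least 500 genes were kept, and the highest doublet scores (0.8% per 1000 barcodes) were removed. Clusters came from 2000 variable genes without any Wnt list gene, 30 components, 15 neighbours and Leiden resolution 1.0. Named genes were the 9 and, of 76 pathway genes, up to 6 called per direction whose values did not overlap and whose mean reached 5 FPKM. Likeness names the 3 genes of highest r. The values of 1 cell type marker list are not reported here.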

Additional observations from a re-analysis of the deposited data

Results flagged for a closer look

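In 18 groups of 4 to 10 libraries tested, 3 values, in 2 libraries, stood apart from the rest of their group, where chance gives about 1 in 20 groups. Wnt11 was listed at 2.49 FPKM in the library labelled +/+ replicate 5 at 8 weeks, beside 0.78 to 1.27 FPKM in the other 4, and this is the library in which Hand2os1 was listed at 0 against the label. Wnt2 and Wnt4 were listed at 0.28 and 0.44 FPKM in D/D replicate 5 at 8 weeks, both below 1 FPKM. In that library the endothelial and endocardial markers summed to 561 FPKM, beside 166 to 335 FPKM in the other D/D libraries. Their part in these values was not tested.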

How the results depend on the processing

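None of the 9 genes was called between genotypes under any alternative run: pseudocount 0.1, no filter on low values, median-ratio scaling, the replicate block, a Y-linked covariate, the term for the library sets or +/+ alone as control at 8 weeks, and leaving out each library. The limma adjusted p of Sfrp2 at E11.5 ranged from 0.165 to 0.912 without 1 library and from 0.418 to 0.841 under the other settings. The count of all genes called at E11.5, 1 in the report, was 2 with the replicate block, 2 with the Y-linked covariate and 1 to 2 without 1 library. At E16.5 it was 2 with pseudocount 0.1, 3 with the Y-linked covariate and 0 to 2 without 1 library. For the interaction it was 2 with pseudocount 0.1, 3 with no filter and 1 to 9 without 1 library (9 without F/+ replicate 3 of E11.5). Between E16.5 and 8 weeks, 8 of the 9 genes instead of 5 were called with no filter, where Wnt2, Wnt4 and Rspo3 entered the test. The replicate numbers did not pair the samples, since no comparison had every correlation of same-numbered deviations above 0.1. These ran from -0.435 to 0.0821 over the embryonic groups and were mixed at 8 weeks (0.528, 0.418, -0.0432, -0.104 and 0.213 between +/+ and D/D). For replicates 1 and 2 they were 0.362 and -0.384 between +/+ and D/+, and 0.364 and -0.423 between D/+ and D/D. The sample labels do not name the library sets, and a batch at 8 weeks was not tested beyond the term for them. The replicate block turned the sign of Wnt5a in D/D (0.04432) and of Sfrp5 between E16.5 and 8 weeks (-0.3388), and changed no call of the 9. Pseudocount 0.1 turned the interaction of Wnt2 (-0.331). The cause was not tested.

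Leaving out 1 library turned the sign of differences that had not passed the test. Their ranges at E11.5 were -0.1804 to 0.3262 for Wnt5a, -0.1102 to 0.3713 for Wnt11 and -0.6082 to 0.2952 for Rspo3. At E16.5 they were -0.1798 to 0.0569 for Wnt5a, -0.1552 to 0.06797 for Wnt11, -0.1102 to 0.02651 for Sfrp1, -0.03096 to 0.4597 for Sfrp2 and -0.07582 to 0.2635 for Sfrp5, turning without F/+ replicate 2 (Wnt5a, Wnt11, Sfrp5), F/F replicate 1 (Wnt11, Sfrp1), F/F replicate 2 (Sfrp1) or F/F replicate 3 (Sfrp2, Sfrp5). In D/D they were -0.2008 to 0.05161 for Wnt5a and -0.1444 to 0.06172 for Sfrp5, the first turning without D/D replicate 6 and the second without D/D replicate 3, +/+ replicate 4 or +/+ replicate 5. Between the stages they were -0.605 to 0.1877 for Sfrp2 (E11.5 to E16.5) and -0.1068 to 0.2004 for Sfrp5 (E16.5 to 8 weeks), the last turning without F/+ replicate 2, +/+ replicate 4 or +/+ replicate 5. For the interaction they were -0.2031 to 0.1699 for Wnt2, -0.3721 to 0.1344 for Wnt5a, -0.4361 to 0.04544 for Wnt11 and -0.5318 to 0.3716 for Rspo3, turning without F/+ replicate 1 or 2 or F/F replicate 1 or 2 of E11.5, or F/+ replicate 2 or F/F replicate 2 of E16.5. In single cells, Leiden resolution 0.5 moved the log2 ratio of Wnt5a in trabecular-like cells to -0.274 and that of Sfrp1 there to 0.0235. Bulk depth is unknown, and the single-cell values rest on 1 pool per genotype.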
